A study of Mus musculus with 12 samples.

Results

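Keratins are the intermediate filament proteins of epithelial cells, and 7 of their genes are described here together with Epcam, the gene of an epithelial adhesion glycoprotein, in whole livers of mice without and with YAP1. The genes were taken by name from the deposited table, where all 8 were found among 25676 genes: Krt8 and Krt18 as hepatocyte keratins, Krt19 and Krt7 as duct keratins with Epcam, and Krt23, Krt80 and Krt20 as keratins of injury or of other epithelia. Of these, 5 (Krt8, Krt18, Krt19, Krt23 and Epcam) had a mean of at least 0.5 TPM and entered the test of 12278 genes. TPM is a length-corrected share of a library's transcripts, and each library sums to 1000000.

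The 12 liver samples came from C57BL/6 mice at 3-4 months of age. There were 6 wild-type (WT) samples, 3 male and 3 female, and 6 samples, 3 male and 3 female, in which Yap1 had been removed by Cre recombinase driven by Foxa3 (KO). Foxa3 is active in the endoderm of the embryo, so its Cre reaches the hepatocyte and bile duct lineages, and cells of other origin keep the gene. Whether the WT mice carried Cre or a floxed allele is not given in the sources used here.

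Keratin filaments are built from pairs of a type I and a type II protein, and neither partner is stable alone. In the adult liver, hepatocytes make K8 as the type II partner and K18 as the type I partner, while bile duct cells add K7 (type II) and K19 (type I) and carry EpCAM on their surface. K8 and K18 are known to accumulate in injured hepatocytes, and K7, K19 and EpCAM are the usual stains for ducts and for ductular cells that appear in damaged liver.

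Positions below are those of GENCODE mouse release M21 on build GRCm38, matched by Ensembl identifier. Krt8 (ENSMUSG00000049382) lies at chr15:101996698-102004482 on the minus strand and Krt18 (ENSMUSG00000023043) at chr15:102028180-102032027 on the plus strand, so the neighbouring genes point away from each other with 23697 bases between them. Krt80 (ENSMUSG00000037185, chr15:101347444-101370162, minus strand) and Krt7 (ENSMUSG00000023039, chr15:101411043-101430313, plus strand) are in the same type II cluster, where Krt18 is the type I exception. Krt20 (ENSMUSG00000035775, chr11:99428403-99438150), Krt23 (ENSMUSG00000006777, chr11:99477974-99493137) and Krt19 (ENSMUSG00000020911, chr11:100140810-100148665) are on the minus strand of the type I cluster. Epcam (ENSMUSG00000045394) is at chr17:87635979-87651129 on the plus strand.

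YAP1 acts through the TEAD factors, so the bases before each start were searched for the TEAD word GGAATG, the AP-1 word TGANTCA, the GC box GGGCGG and the TATA box TATAAA on both strands. RefSeq promoters (GRCm38.p6) were found for 6 of the 8 genes, and the 250 bases before the start were searched. Krt8 and Krt18 are shown because they moved together and had the largest log2(TPM + 1) differences of the members, and Krt20 because it alone of the 6 held the TEAD word. Capitals mark matched words, and the Krt8 and Krt18 runs stop at the first base of the gene in the GENCODE annotation.
Krt8, chr15:102004483-102004592, minus strand: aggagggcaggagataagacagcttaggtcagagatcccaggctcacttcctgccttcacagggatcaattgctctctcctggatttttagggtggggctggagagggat
Krt18, chr15:102027966-102028179, plus strand: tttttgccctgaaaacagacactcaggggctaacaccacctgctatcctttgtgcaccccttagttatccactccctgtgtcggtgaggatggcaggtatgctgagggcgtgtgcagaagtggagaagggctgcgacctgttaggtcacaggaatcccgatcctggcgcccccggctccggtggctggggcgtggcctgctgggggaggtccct
Krt20, chr11:99438154-99438403, minus strand: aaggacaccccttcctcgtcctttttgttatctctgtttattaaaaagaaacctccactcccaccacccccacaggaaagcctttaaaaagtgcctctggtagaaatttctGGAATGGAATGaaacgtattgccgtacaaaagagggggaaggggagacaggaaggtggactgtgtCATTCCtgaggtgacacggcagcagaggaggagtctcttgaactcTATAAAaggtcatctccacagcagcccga

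The Krt20 run holds GGAATG at 139 and at 134 bases before the start, which overlap in 1 base, its reverse complement at 74 bases and TATAAA at 29 bases. The TEAD word is present in 12.6% of the 32851 promoters of this length, the TATA word in 12.4%, the GC box in 32.7% and the AP-1 word in 6.75%. The GC box was found 4 times before Krt7 and 1 time before Epcam, and none of the 4 words was found before Krt8, Krt18 or Krt23. The starts are those of RefSeq. Most of the Krt7 bases searched lie inside the gene as GENCODE places it, and so do some of those of Krt8, Krt18 and Krt23. A match is a description of the letters, and factor binding was not measured.

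Each library had between 14321 and 15482 genes above 0 TPM, and libraries of 1 group correlated at r = 0.967 to 0.990 across the tested genes. Steps in the low values gave the worth of 1 read in 1000 exon bases as 0.071 to 0.115 TPM, from which whole reads behind each value were estimated. Yap1 was at 23.0 to 34.9 TPM in WT and 0.994 to 3.11 TPM in KO (log2 difference -3.36, exact permutation p = 0.005 within sex, two-sided, the smallest this design allows), so every library matched its genotype label. Sex labels were not checked here. Each library bears its own number, but the labels do not state outright that each is a separate mouse, and p-values measure the spread between these libraries. WT female replicate 3 and KO female replicate 1 bear lower label numbers than the other libraries and are called the early series here. No label states that they differ in time or batch. Most genes were shifted upward in KO: the median log2 difference of all tested genes was 0.35 on the deposited scale and -0.04 after median-of-ratios rescaling, so values on both scales are given for the genotype differences of the members. All differences were taken after adding 1 to each TPM, so those of weakly expressed genes are compressed.

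The genotype comparison asked how the hepatocyte keratins, the duct keratins and the remaining keratins differed between livers with and without YAP1. Krt8 and Krt18 rose in KO livers, Krt23 rose on the deposited scale, and Epcam was lower. Krt19 did not pass the test. With limma and Benjamini-Hochberg adjustment over all tested genes, 3 of the 5 tested members were called higher, against 50.1% of all tested genes, and 1 was called lower, against 4.82% of all tested genes. After rescaling, 2 were called higher, against 20.9% of all tested genes, and 1 lower, against 18.7%.

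**Figure D1:**
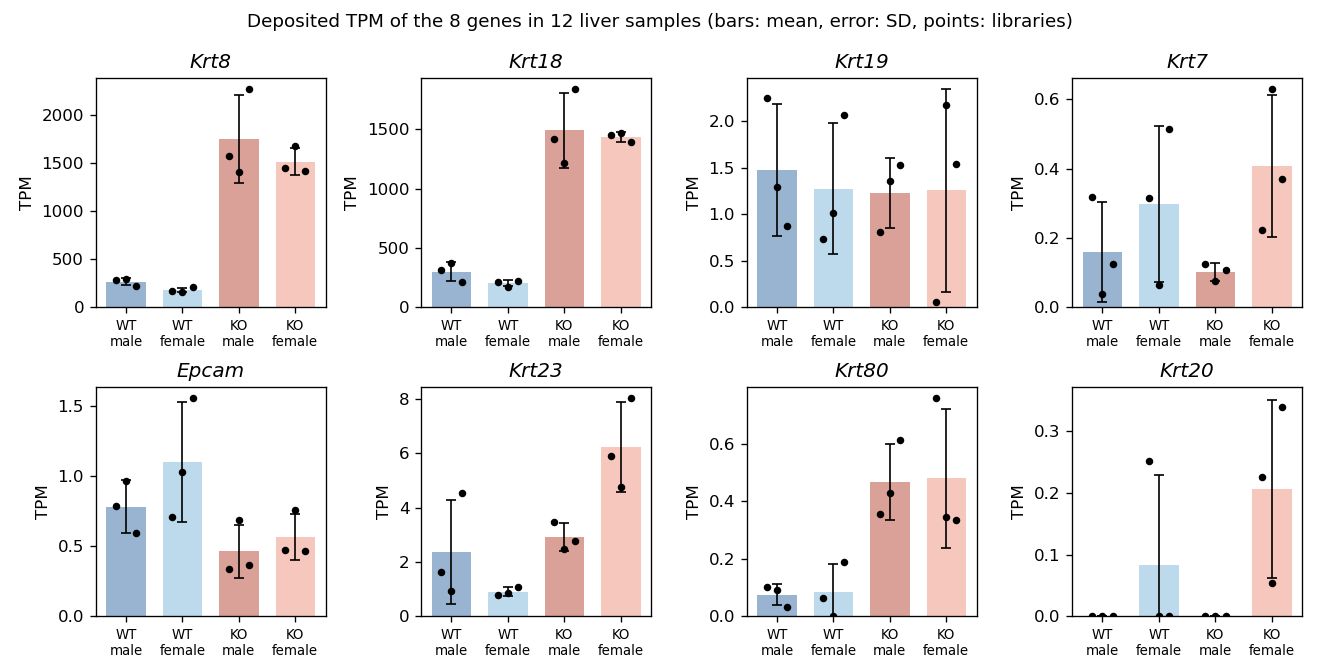
Deposited TPM (vertical axes, linear from 0) of the 8 genes in the 4 groups of 3 liver samples, where bars are means, error bars are SD and points are libraries. The KO libraries of Krt8, Krt18 and Krt80 lie above all WT libraries, while those of Krt19 and Krt7 overlap with WT.

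Krt8, the type II keratin of hepatocytes, was at 279, 295 and 224 TPM in the WT males and at 175, 163 and 209 TPM in the WT females. In KO it was at 1567, 1401 and 2262 TPM in the males and at 1441, 1676 and 1419 TPM in the females. All 6 KO values were above all 6 WT values, a separation in this direction seen in 28.7% of the tested genes, and KO male replicate 3 stood above the other KO libraries. The mean was 224 ± 53.7 TPM (SD, n = 6) in WT and 1628 ± 328 TPM (SD, n = 6) in KO, 7.27-fold higher as deposited and 5.11-fold higher after rescaling. The log2 difference was 2.87 (SE 0.139, limma adjusted p = 3.64e-09), the 99th largest rise of the 12278 tested genes, and 2.40 (adjusted p = 1.34e-07) after rescaling.

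Krt18, its type I partner, was at 315, 374 and 215 TPM in the WT males and at 216, 175 and 220 TPM in the WT females. The KO males were at 1418, 1216 and 1837 TPM and the KO females at 1450, 1473 and 1390 TPM. Again no KO library overlapped with WT, and the KO females lay close together while the KO males spread more. The mean rose from 252 ± 75.3 TPM (SD, n = 6) to 1464 ± 204 TPM (SD, n = 6), 5.80-fold as deposited and 4.07-fold after rescaling. The log2 difference was 2.57 (SE 0.158, limma adjusted p = 3.49e-08), the 137th largest rise, and 2.10 (adjusted p = 2.02e-06) after rescaling. In bulk tissue, more cells of a type and more RNA per cell cannot be told apart, and the same holds for a fall.

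The rise made both genes some of the most abundant of the liver. Krt8 ranked between 318 and 709 among the genes of each WT library and between 52 and 92 in KO, and Krt18 between 265 and 669 in WT and between 61 and 100 in KO. Their summed share of all TPM was 0.0476% ± 0.0127 (SD, n = 6) in WT and 0.309% ± 0.0524 (SD, n = 6) in KO. Between 2661 and 7083 estimated reads stood behind each WT value of the pair and between 16314 and 38603 behind each KO value, so counting error is small beside the spread between libraries.

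Krt8 and Krt18 followed each other closely. By the root mean square difference between their standardised profiles over the 12 libraries (0.088), each was the nearest of all tested genes to the other. The next nearest were Clu (0.117) and Galns (0.126) for Krt8, and Lpl (0.119) and Tnip1 (0.120) for Krt18. Clu went from a mean of 1037 TPM in WT to 6362 TPM in KO, and Lpl from 7.68 to 176 TPM. The ratio of Krt8 to Krt18, which no scaling between libraries can move, was 0.789 to 1.04 in WT (median 0.910) and 0.994 to 1.23 in KO (median 1.12). All 6 KO ratios were above the WT median, and the ranges overlap through WT male replicate 3.

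Krt19, the type I keratin of bile duct cells, was at 2.26, 1.29 and 0.874 TPM in the WT males and at 0.738, 1.02 and 2.07 TPM in the WT females. In KO it was at 0.810, 1.36 and 1.53 TPM in the males and at 0.0552, 2.17 and 1.54 TPM in the females. The groups overlap throughout, apart from KO female replicate 1, whose value stands for 1 estimated read against 12 to 46 reads in WT and 12 to 33 in the other KO libraries. The log2 difference was -0.12 (SE 0.251, limma adjusted p = 0.707) and -0.36 (adjusted p = 0.268) after rescaling. With a pseudocount of 0.1 these became -0.40 (adjusted p = 0.565) and -0.79 (adjusted p = 0.274), and the rescaled WT mean was 1.52 times the KO mean. Without KO female replicate 1 it was 0.09 (adjusted p = 0.719) as deposited, so on that scale the sign rests on that library. After rescaling the difference was -0.51 to -0.17 over the 12 fits that each left out 1 library, and none of them passed. The standard error leaves room for a moderate change either way.

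Krt7, the type II duct keratin, was lower still and not in the filtered test. It was at 0.319, 0.0380 and 0.125 TPM in the WT males, 0.316, 0.0659 and 0.513 TPM in the WT females, 0.124, 0.0748 and 0.107 TPM in the KO males and 0.223, 0.628 and 0.371 TPM in the KO females. These values stand for 2 to 31 estimated reads in WT and 3 to 26 in KO, and the genotypes overlap. Fitted without the filter on low values, its log2 difference was 0.03 (SE 0.097, limma adjusted p = 0.849), and -0.05 (adjusted p = 0.775) after rescaling.

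Epcam was at 0.789, 0.965 and 0.593 TPM in the WT males and at 0.707, 1.03 and 1.55 TPM in the WT females. The KO males were at 0.339, 0.683 and 0.366 TPM and the KO females at 0.476, 0.756 and 0.469 TPM. As deposited the highest KO values reach into the WT range, so that Epcam is not one of the 1.88% of tested genes with all KO below all WT, and after rescaling it is one of 8.19%. The mean was 0.940 ± 0.341 TPM (SD, n = 6) in WT and 0.515 ± 0.169 TPM (SD, n = 6) in KO, 1.83-fold lower as deposited and 2.49-fold lower after rescaling. The log2 difference was -0.35 (SE 0.125, limma adjusted p = 0.0312) and -0.53 (adjusted p = 0.00546) after rescaling.

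The Epcam values rest on 16 to 48 estimated reads in WT and 7 to 16 in KO. As deposited, its call was lost when any 1 of 8 libraries was left out (WT male replicates 1 and 2, WT female replicates 2 and 3, KO male replicates 1 and 3, KO female replicates 1 and 3), with an adjusted p of 0.0198 to 0.0764 over the 12 fits. Without both early-series libraries the difference was -0.26 (adjusted p = 0.117). After rescaling the call was kept in all 12 of these single-library omissions, with an adjusted p of 0.0038 to 0.014.

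**Figure D2:**
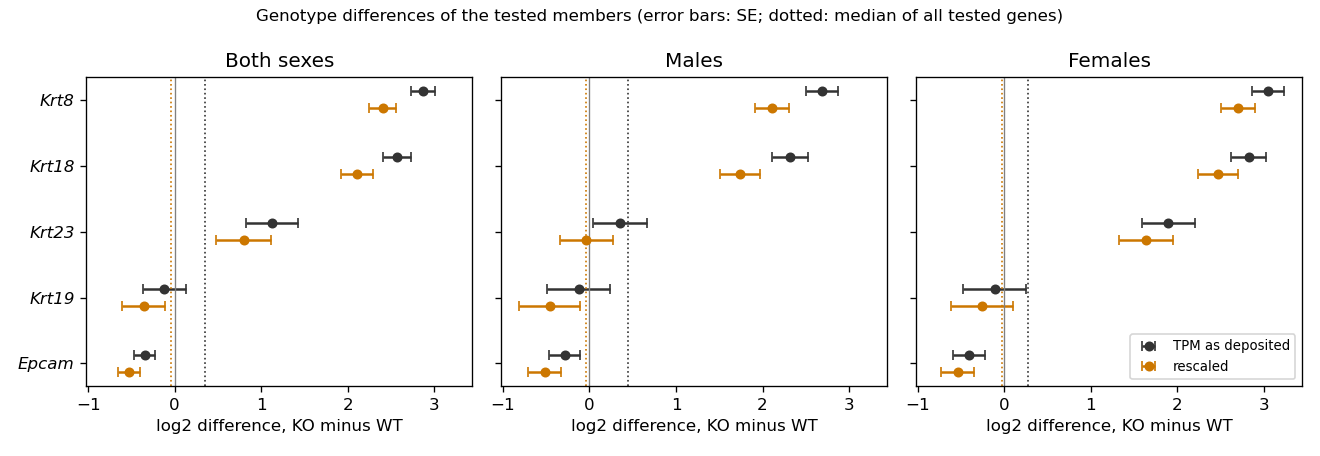
Log2 difference, KO minus WT (horizontal axis), of the 5 tested members over both sexes, in males and in females, as deposited (dark) and after rescaling (orange), with SE as error bars and the median of all tested genes dotted. Krt8 and Krt18 lie above 1.7 in every panel on both scales, and Krt23 lies near the median in males and above 1.6 in females.

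Within each library, the duct genes were set against the hepatocyte keratins, a comparison that no rescaling can alter. There were 3.42 to 9.44 TPM of Krt19 per 1000 TPM of Krt18 in WT (median 4.94) and 0.0381 to 1.47 in KO (median 0.972), with no overlap. For Krt7 the same ratio was 0.102 to 2.34 in WT and 0.0582 to 0.427 in KO, which overlap. For Epcam it was 2.51 to 7.08 in WT and 0.199 to 0.562 in KO, with no overlap. Such a separation is common, since 75.2% of the other tested genes also had a ratio to Krt18 lower in all KO than in all WT libraries. The median ratio of Krt19 to Krt18 was 5.08-fold lower in KO, that of Krt7 6.60-fold lower and that of Epcam 9.05-fold lower. In the first 2 of these the numerators did not pass the genotype test, and the denominator rose 5.80-fold. No test was made of these ratios.

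**Figure D3:**
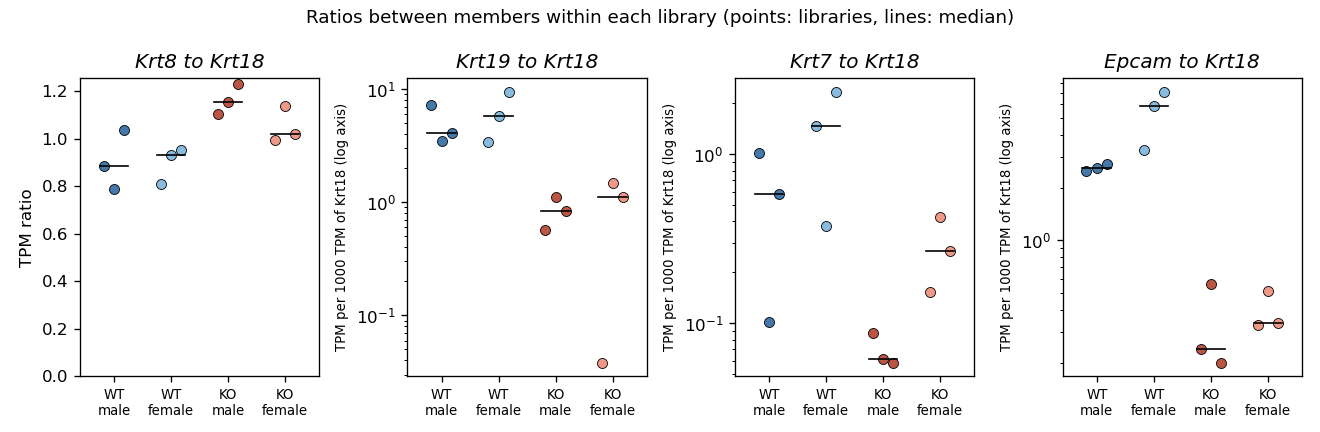
Ratio of Krt8 to Krt18 (linear axis from 0) and TPM of Krt19, Krt7 and Epcam per 1000 TPM of Krt18 (log axes) in each library by group, with the median of each group as a line. The Krt19 and Epcam ratios of all KO libraries lie below those of all WT libraries, and the Krt7 ratios overlap.

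Krt23, a type I keratin known to be induced in injured liver, was at 1.63, 0.937 and 4.55 TPM in the WT males and at 0.806, 0.844 and 1.09 TPM in the WT females. The KO males were at 3.47, 2.46 and 2.79 TPM and the KO females at 5.89, 4.77 and 8.02 TPM. WT male replicate 3 was above all 3 KO males, whereas in females all KO values were above all WT values, as in 43.5% of all tested genes. Over both sexes the log2 difference was 1.12 (SE 0.300, limma adjusted p = 0.00649), and 0.80 (adjusted p = 0.06) after rescaling, which does not pass the threshold. With rescaling and a pseudocount of 0.1 it was 1.14 and just passed (adjusted p = 0.0494). The rescaled call was made in 3 of 12 fits that each left out 1 library, with an adjusted p of 0.00291 to 0.136.

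Krt80, a type II keratin of stratified and other epithelia, was at 0.102, 0.0908 and 0.0341 TPM in the WT males and at 0.0648, 0 and 0.190 TPM in the WT females. The KO males were at 0.356, 0.430 and 0.614 TPM and the KO females at 0.756, 0.347 and 0.334 TPM. All KO values were above all WT values, as in 21.7% of the 17332 genes with a value above 0, on 0 to 12 estimated reads in WT and 15 to 39 in KO. Its mean was below the filter, and the fit without a filter gave a log2 difference of 0.44 (SE 0.074, limma adjusted p = 0.000585) and 0.34 (adjusted p = 0.00128) after rescaling. In that fit 38.0% of the genes were called higher. The mean level was 5.89-fold higher as deposited and 4.13-fold higher after rescaling. Krt80 per 1000 TPM of Krt8 had a median of 0.336 in WT and 0.253 in KO, with overlapping ranges.

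Krt20, a type I keratin of gut and urothelium, was listed at 0 in all 6 males of both genotypes. It was at 0.252 TPM in WT female replicate 1, at 0 in the other two WT females, and at 0.226, 0.0538 and 0.340 TPM in the KO females. These stand for 5 estimated reads in the WT female and for 5, 1 and 7 in the KO females. The fit without a filter gave a log2 difference of 0.08 (SE 0.068, limma adjusted p = 0.402), and 0.05 (adjusted p = 0.582) after rescaling. The TEAD words printed above thus precede the member with the fewest reads.

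In order of mean level in WT the genes were Krt18, Krt8, Krt23, Krt19, Epcam, Krt7, Krt80 and Krt20, and in KO they were Krt8, Krt18, Krt23, Krt19, Epcam, Krt80, Krt7 and Krt20. Krt8 and Krt18 overlapped in each genotype, and so did Krt23, Krt19 and Epcam in WT. In WT the lowest Epcam value, 0.593 TPM, was above the highest Krt7 value, 0.513 TPM, and Krt7, Krt80 and Krt20 overlapped. In KO Epcam, Krt80 and Krt7 overlapped, and the lowest Krt23 value, 2.46 TPM, was above the highest Krt19 value, 2.17 TPM. No other keratin reached a mean of 0.5 TPM over the 12 libraries, the highest being Krt10 with 0.581 TPM in WT and 0.412 TPM in KO, which lies between Epcam and Krt7 in WT. Of the 53 keratin genes in the table, 27 on chromosome 11 and 26 on chromosome 15, 46 were outside the list, and 25 of these were at 0 in every library. The summed TPM of the 46 was 0.756 to 3.42 in WT and 0.432 to 5.85 in KO, overlapping, with the highest sum in KO male replicate 3.

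Within the sexes, Krt8 and Krt18 rose in both. In males 2 of the 5 tested members were called higher, against 43.3% of all tested genes as deposited and 13.9% after rescaling. None was called lower, against 2.81% and 10.2%. In females 3 were called higher, against 29.1% of all tested genes as deposited and 15.2% after rescaling. None was called lower, against 4.68% and 10.9%. The log2 difference of Krt8 was 2.69 in males (SE 0.188, limma adjusted p = 4.1e-07) and 3.05 in females (SE 0.188, adjusted p = 1.68e-07), and 2.11 and 2.70 after rescaling. That of Krt18 was 2.32 in males (SE 0.205, limma adjusted p = 3.44e-06) and 2.82 in females (SE 0.205, adjusted p = 6.95e-07), and 1.74 and 2.47 after rescaling. The interaction was -0.36 (SE 0.265, limma adjusted p = 0.707) for Krt8 and -0.50 (SE 0.290, adjusted p = 0.641) for Krt18, and neither passed. After rescaling the interactions were -0.59 (adjusted p = 0.685) and -0.73 (adjusted p = 0.639).

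Krt23 was the member that differed most between the sexes. Its log2 difference was 0.35 in males (SE 0.311, limma adjusted p = 0.363) and 1.90 in females (SE 0.311, adjusted p = 0.000535), and after rescaling -0.04 (adjusted p = 0.946) and 1.63 (adjusted p = 0.00193). The interaction was -1.55 (SE 0.440, unadjusted p = 0.00394, limma adjusted p = 0.221), which did not pass the threshold. No member was called in the interaction, against 0.912% of all tested genes, and 1 had an unadjusted p under 0.05. Without WT male replicate 3, the male difference of Krt23 was 0.78 (adjusted p = 0.016) and the interaction -1.11 (adjusted p = 0.113). Without WT male replicate 2 they moved the other way, to 0.02 (adjusted p = 0.955) and -1.87 (adjusted p = 0.0565). Epcam was lower by a like amount in males (-0.29, SE 0.183, limma adjusted p = 0.207) and females (-0.41, SE 0.183, adjusted p = 0.107), and neither passed alone. After rescaling it was -0.52 in males (adjusted p = 0.0672) and -0.54 in females (adjusted p = 0.053), and with a pseudocount of 0.1 as well the male difference of -1.17 just passed (adjusted p = 0.0487).

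Between the sexes of 1 genotype, no member was called in WT, against 5.74% of all tested genes, though 3 had an unadjusted limma p under 0.05. Krt8 was higher in the 3 WT males than in the 3 WT females without overlap, as were 5.99% of all tested genes (log2 difference, male minus female, 0.54, SE 0.188, limma adjusted p = 0.104). After rescaling the difference was 0.77 (adjusted p = 0.0498), and Krt8 was then the only member called, against 4.38% of all tested genes. Krt18 differed by 0.53 (SE 0.205, limma adjusted p = 0.132), and by 0.76 after rescaling (adjusted p = 0.078). Without WT male replicate 3 both passed as deposited, Krt8 with 0.66 (adjusted p = 0.0496) and Krt18 with 0.76 (adjusted p = 0.0229), but 1698 genes were then called in place of 705. In KO no member was called, against 0.0814% of all tested genes, and 1 had an unadjusted p under 0.05. This was Krt23, whose 3 KO males lay below the 3 KO females, as in 5.09% of all tested genes, differing by -0.87 on the log2 scale (SE 0.311, unadjusted p = 0.0153, limma adjusted p = 0.85), and by -0.84 after rescaling (adjusted p = 0.841).

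Within the early series, KO female replicate 1 and WT female replicate 3 gave 1441 against 209 TPM for Krt8, 1450 against 220 TPM for Krt18, 5.89 against 1.09 TPM for Krt23, 0.756 against 0.190 TPM for Krt80, 0.476 against 1.55 TPM for Epcam and 0.0552 against 2.07 TPM for Krt19. With 1 library of each genotype this series allows no test. Without it the log2 difference of Krt8 was 2.89 and that of Krt18 was 2.54 (limma adjusted p = 2.3e-07 and 1.66e-06), that of Krt23 was 1.00 (adjusted p = 0.0326) and that of Krt19 was 0.17 (adjusted p = 0.518).

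The authors' deposited table also lists a log2 fold change of KO against WT, by a method that neither header nor labels state. The authors' deposited table gives 2.12 for Krt8, 1.81 for Krt18, 2.29 for Krt80 (FDR p-value of 0 to 2 decimals for each) and 1.18 for Krt23 (FDR 0.05). It gives -1.38 for Epcam (FDR 0.02), -0.20 for Krt7 (FDR 0.88) and 2.13 for Krt20 (FDR 0.34). For Krt19 the authors' deposited table gives -1.51 (FDR 0.02), whereas the deposited TPM gave means of 1.37 ± 0.641 (SD, n = 6) in WT and 1.25 ± 0.728 (SD, n = 6) in KO. After rescaling of these TPM the WT mean was 1.52 times the KO mean, and the difference was not called either (limma adjusted p = 0.268). The call on Krt19 thus depends on which of these deposited values is read.

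Genes whose proteins meet keratins or EpCAM were followed as 4 lists, none of which was subjected to a set test. All tested genes had a median log2 difference of 0.35, and -0.04 after rescaling. Of the genes that anchor keratin filaments to desmosomes and to other cytoskeletal parts, 13 of 14 tested were called higher and 0 lower as deposited (median 0.88), against 50.1% of all tested genes called higher. After rescaling 9 were called higher (median 0.49), against 20.9%. Ppl, encoding the linker periplakin, went from 4.28 ± 1.35 to 30.2 ± 7.58 TPM (SD, n = 6 each, log2 difference 2.56, limma adjusted p = 3.37e-07). Eppk1 (epiplakin, which binds keratin bundles) differed by 1.84, Dsp (desmoplakin) by 1.17 and Plec (plectin) by 1.17, with limma adjusted p of 2.76e-06, 0.000157 and 5.51e-06, and these 4 were also called higher after rescaling.

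Of the partners and proteases of EpCAM, 13 of 13 tested were called higher and 0 lower as deposited (median 1.78), against 50.1% of all tested genes called higher. After rescaling 11 were called higher (median 1.40), against 20.9%, while Epcam itself was lower on both scales. Cd9, a tetraspanin found with EpCAM at the membrane, went from 19.0 ± 4.41 to 228 ± 45.6 TPM (SD, n = 6 each, log2 difference 3.52, limma adjusted p = 3.16e-09). Cldn7, a claudin bound by EpCAM, went from 0.248 ± 0.137 to 11.3 ± 2.57 TPM (SD, n = 6 each, log2 difference 3.28, limma adjusted p = 2.06e-09). Tspan8, another tetraspanin, differed by 2.65 and St14, encoding the protease matriptase, by 2.40 (limma adjusted p = 9.14e-06 and 2.47e-06).

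Of the genes of keratin aggregates and their chaperones, 2 of 9 tested were called higher and 0 lower, as deposited and after rescaling (median 0.36 and -0.11), against 50.1% and 20.9% of all tested genes called higher. They were Tgm2, the transglutaminase that crosslinks keratins, with a log2 difference of 2.86 (limma adjusted p = 1.74e-07), and Sqstm1, encoding the p62 protein of such aggregates, with 1.29 (adjusted p = 8.95e-07). The heat shock and ubiquitin genes of the list did not pass the test, Hspb1 for example at 36.5 ± 19.8 and 38.2 ± 15.6 TPM (SD, n = 6 each). Of the other intermediate filament genes, 4 of 6 tested were called higher and 0 lower as deposited, and after rescaling 2 were higher and 1, Lmnb1, was lower, to be read against the same shares. Vim, the vimentin of mesenchymal cells, differed by 1.94, Lmna, a nuclear lamin, by 1.53, Des, the desmin of stellate and muscle cells, by 0.53 and Lmnb2, another lamin, by 0.33 (limma adjusted p = 1.04e-06, 1.59e-07, 0.0306 and 0.0431). Of these 4, Vim and Lmna were called higher after rescaling.

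**Figure D4:**
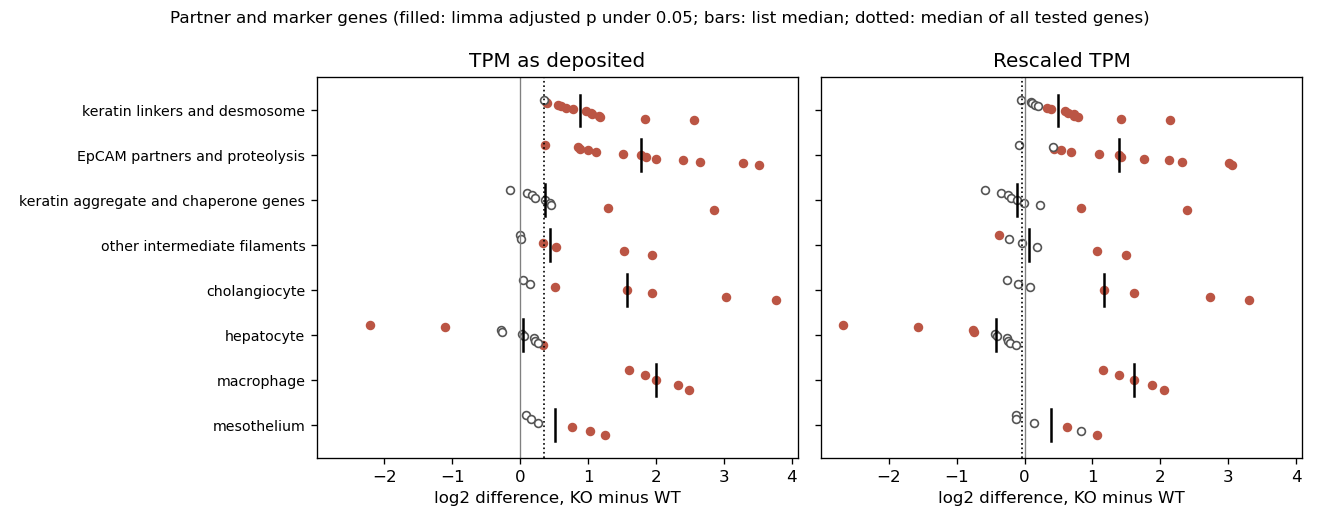
Log2 difference, KO minus WT (horizontal axis), of each tested gene of the 4 partner lists and of 4 marker lists, as deposited (left) and after rescaling (right), with called genes filled, list medians as bars and the median of all tested genes dotted. The EpCAM partners lie furthest right of the partner lists, with medians of 1.78 and 1.40, and most chaperone genes lie near the dotted line.

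Markers of the cells that could carry these genes were read in the same fit. Of the cholangiocyte markers other than the members, 5 of 7 tested were called higher and 0 lower as deposited, against 50.1% of all tested genes called higher, and 4 after rescaling, against 20.9%. They had a summed level of 38.8 to 72.5 TPM in WT and 292 to 758 TPM in KO. Spp1, encoding osteopontin, made up most of that sum (33.8 ± 11.2 and 492 ± 195 TPM, SD, n = 6 each), and Prom1 went from 1.19 to 15.4 TPM. Sox9 and Bicc1, named after their values were seen, were also called higher. Sctr and Cftr, the secretin receptor and the chloride channel of mature ducts, were near 0, at 0.0281 and 0.0279 TPM in WT and 0.00721 and 0.0174 TPM in KO. Thus Spp1, Prom1, Sox9 and Bicc1 rose while Krt19 and Krt7 did not pass the test and Epcam was lower.

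The counts of the lists below are to be read against the shares of all tested genes, 50.1% higher and 4.82% lower as deposited, and 20.9% higher and 18.7% lower after rescaling. Of the hepatocyte markers, 1 of 10 was called higher (Hnf4a) and 2 lower (Ttr and Cyp2e1), and after rescaling 0 were higher and 4 lower (Alb, Ttr, Cyp2e1 and Fah), with a summed level of 84740 to 113500 TPM in WT and 63410 to 88130 TPM in KO. Alb was at 70630 TPM in WT and 58430 TPM in KO, Apoa1 at 9549 and 9799 TPM and Ttr at 7453 and 3537 TPM. Of the macrophage markers, 5 of 5 were called higher (Cd68, Adgre1, Clec4f, Csf1r and Cd5l), also after rescaling, and their sum was 59.2 to 189 TPM in WT and 266 to 539 TPM in KO. Of the mesothelial markers, whose cells also make K8, K18 and K19, 3 of 6 were called higher (Msln, Wt1 and Lrrn4, the last 2 also after rescaling), near those shares, with a sum of 2.001 to 10.5 TPM in WT and 4.32 to 16.5 TPM in KO. Msln was at 0.645 TPM in WT and 2.39 TPM in KO. Gpm6a, at 1.76 and 2.16 TPM, and Upk3b, at 1.28 and 1.56 TPM, were not called. The part of these cells in the keratin and Epcam values was not tested.

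Other epithelia were followed by their markers as well. The pancreatic acinar markers summed to at most 0.544 TPM in WT and 1.69 TPM in KO, and the epidermal markers to 0.739 to 2.19 TPM and 0.518 to 2.40 TPM, with Krt1 at 0 in every library. The gut markers summed to 45.8 to 91.6 TPM in WT and 22.9 to 33.9 TPM in KO, nearly all of it Fabp2, the 1 gene of the list that was tested, which was lower in KO (75.9 and 27.0 TPM). Below the filter, Cdx1 and Cdx2 were at 0 in every library, Cdh17 was at 0 to 0.0159 TPM in WT and 0.0696 to 1.39 TPM in KO, and Vil1 at 0 to 0.334 TPM and 0.329 to 1.12 TPM. Against 50.1% higher and 4.82% lower of all tested genes, 3 of 5 stellate cell markers were called higher (Col1a1, Pdgfrb and Des), of the neutrophil markers 2 of 3 (S100a8 and S100a9), of the lymphocyte markers 0 of 2, and of the endothelial markers 1 of 5 was higher (Cdh5) and 1 lower (Kdr). After rescaling, against 20.9% higher and 18.7% lower, these became 2 higher and 1 lower (Lrat) for stellate cells, 0 for neutrophils, 0 for lymphocytes and 0 higher with 1 lower (Kdr) for endothelium.

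Other genes with profiles near those of the members were less alike. By the same measure over the 12 libraries, the nearest to Krt23 was H1f10 (0.411), then Akr7a5 (0.422) and Prpsap1 (0.437). The nearest to Epcam was Acpp (0.434), then Ppm1k and Gnmt (both 0.455). The nearest to Krt19 was Lpin2 (0.647), then Atp5a1 (0.661) and Pygl (0.665). Krt19 and Epcam were 1.04 apart, while Krt19 and Krt18 were 1.41 apart, so neither duct gene had a profile close to that of the hepatocyte keratins.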

How the data were processed

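Whole-liver RNA was sequenced as 12 libraries. The authors deposited TPM per gene, per the file headers, each column summing to 1000000. The submitters' processing notes name build GRCm38 and edgeR, without role or version. The aligner, annotation and use of strand are not given in the sources used here. The authors' own KO against WT columns, per the file headers, are a fold change, its log2 value and an FDR p-value to 2 decimals, read for comparison only. Depth is known only through estimated reads: TPM times exon length, divided by the worth of 1 read, fell within 0.05 of whole numbers for every member value, with a common step found from the values for Krt7, Krt19 and Krt80. These are estimates and no count model was run on them. All 12 sample columns were matched and 0 were left over.

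Genes with a mean of at least 0.5 TPM were tested as log2(TPM + 1), a pseudocount of 1, with limma 3.58.1 in R 4.3.3 (eBayes with trend, two-sided, Benjamini-Hochberg over 12278 genes, threshold 0.05). Genotype was fitted on 12 libraries with sex as covariate. Comparisons within sexes, between sexes and the interaction (male minus female genotype effect) came from 1 model of the 4 group means. The pipeline was tested on simulated data. Changes were planted there only in more highly expressed genes, a range that holds Krt8 and Krt18 but not Krt23, Krt19 or Epcam. Alternatives were a pseudocount of 0.1, no filter, median-of-ratios rescaling, a covariate for the early series, no trend and each library left out. Leaving out the early series, rescaling with a pseudocount of 0.1 and the fits of Krt7, Krt20 and Krt80 were added after seeing the data. The members and all lists were chosen with earlier results of these data known. Genes were named by rule: the members, Yap1, other keratins of at least 0.5 TPM, up to 4 called genes of each partner list with the largest difference, up to 3 markers of each list with the highest mean TPM, and the 3 nearest profiles. Some genes that the rule names are not reported here. Other named genes were chosen after their values were seen. Replicate numbers follow the order of deposition and pair no samples. GENCODE identifiers matched 25635 of 25676 genes. Overlapping and antisense genes can share reads where strand was not used.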

Additional observations from a re-analysis of the deposited data

Results flagged for a closer look

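In 3 of the 16 sets of 6 libraries examined (each member in each genotype), 1 library lay far from the rest, with a gap to its nearest neighbour above 0.625 of the whole range. Chance alone gives such a gap in about 1 set in 20. Krt8 in KO male replicate 3 was at 2262 TPM, with the other KO libraries at 1401 to 1676 TPM. Krt23 in WT male replicate 3 was at 4.55 TPM, with the other WT libraries at 0.806 to 1.63 TPM. Krt20 in WT female replicate 1 was at 0.252 TPM, with the other WT libraries at 0, where any single value above 0 gives this gap, so the rate of 1 in 20 does not apply to it.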

How the results depend on the processing

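No paired analysis was possible because replicate numbers follow the order of deposition and no label pairs the samples. The genotype calls of Krt8 and Krt18 were kept under every alternative run. Leaving out single libraries gave 75 to 176 genes called in the interaction, 291 to 1698 between the sexes in WT and 6 to 10 in KO. The Krt19 difference then ran from -0.26 to 0.09 for genotype, -0.31 to 0.09 in males, -0.43 to 0.36 in females, -0.49 to 0.31 for the interaction, -0.09 to 0.36 for sex in WT and -0.36 to 0.43 for sex in KO. The Epcam interaction ran from -0.03 to 0.26, the sex difference in KO from -0.02 to 0.32 for Krt8 and -0.13 to 0.17 for Krt18, and unfiltered Krt7 from -0.04 to 0.08. Rescaling gave 2959 genes called in males (3011 with a pseudocount of 0.1), a male Krt23 difference of -0.04 and an unfiltered Krt7 difference of -0.05. With rescaling and a pseudocount of 0.1, 6 genes were called between the sexes in KO, and the interaction was 0.13 for Krt19 and -0.06 for Epcam. A pseudocount of 0.1 alone gave 0.42 for the Krt19 interaction. Without the early series Krt19 differed by 0.17 for genotype, 0.60 in females and -0.36 between the sexes in KO, the Epcam interaction was -0.07, and 465 genes were called between the sexes in WT. The covariate for that series gave 409 such genes and -0.01 for Krt19 between the sexes in KO. The cause was not tested. Depth limits Krt7, Krt19, Krt20, Krt80 and Epcam, which rest on at most 48 estimated reads in a library. It also limits Krt23, which rests on 13 to 93 estimated reads in WT, the 93 in WT male replicate 3, and on 36 to 134 in KO.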
